A study of Mus musculus with 6 samples.

Results

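Fat cell RNA in the lacrimal gland was followed through 10 adipocyte genes (Adipoq, Plin1, Plin4, Cidec, Fabp4, Lep, Lpl, Cfd, Retn and Pparg), taken by name from the 55401 genes of the deposited count table. All 10 were found, each under 1 identifier. The libraries came from lacrimal glands, which secrete the watery part of tears, of 3 samples of ICR mice, an outbred stock labelled as the control, and 3 samples of NOD/Ltj mice, an inbred strain with spontaneous autoimmune disease. Polyadenylated RNA was sequenced without any treatment being named, and the labels used here give neither age nor sex and do not say that the samples were separate animals, so each p-value reflects only sample-to-sample spread, which may be technical. In bulk tissue, fewer fat cells and less RNA per fat cell cannot be told apart.

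White adipocytes store triglyceride in 1 large droplet, take up fatty acids released from circulating lipoproteins, and secrete hormones. Pparg is the nuclear receptor that drives their differentiation, and many of the other genes named here are among its known targets. Fat lies around and between the lobes of exocrine glands, next to connective tissue, vessels and neighbouring salivary glands. Fabp4, Lpl and Pparg are also made by capillary endothelium or macrophages, so none of these 3 marks a fat cell alone.

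The libraries held 58426580 to 76554340 estimated counts, at about 4 counts per fragment for genes with few reads. Where a gene had no count, up to 12 counts remain possible at 95% confidence, which is 0.157 to 0.205 CPM (the count scaled to the library total) before scaling and covers counting error only. Markers from a list for the labelled tissue were present, with Pip, a secreted tear protein, between 7600 CPM (NOD 3) and 11700 CPM (NOD 1). The water channel gene Aqp5 stood between 71.5 and 108 CPM. Of the same list, Lacrt matched no identifier, and Prol1 stood at 20.7 to 147 CPM in ICR but 2.52 to 2.59 CPM in NOD/Ltj. ICR 1 held 161 of 13972 genes at 4 times the next library or more, against 1 to 25 in each of the others. Skeletal muscle genes summed to 161 CPM in ICR 3 and to 2.15 to 6.49 CPM elsewhere. Salivary gland genes summed to 14100 CPM in ICR 3, 2540 in NOD 2, 1400 in ICR 2, 652 in ICR 1, 102 in NOD 1 and 106 in NOD 3.

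Fat cell RNA differed widely between libraries, and the strains overlapped. Summed over the 10 genes, it stood at 139 CPM in ICR 1, 22.5 in ICR 2 and 57.2 in ICR 3, and at 17.9 in NOD 1, 44.6 in NOD 2 and 21.7 in NOD 3. ICR 1 was thus the highest and NOD 1 the lowest, and the other ICR and NOD libraries lay interleaved between them. The strain means were 73.1 ± 60.0 CPM in ICR and 28.0 ± 14.4 CPM in NOD/Ltj (SD, n = 3 each). Fabp4 and Lpl made up 67.7 to 91.9% of each sum. Without Fabp4, Lpl and Pparg, a choice made after the values were seen, the remaining 7 genes summed to 30.1, 3.65 and 14.0 CPM in ICR 1, 2 and 3 and to 0.963, 13.9 and 4.29 CPM in NOD 1, 2 and 3. That narrower sum ran over a 31.2-fold range, against 7.80-fold for all 10. The order of ICR 2 and NOD 3 was not stable: ICR 2 was above NOD 3 in the sum of 10 and below it in the sum of 7, in the mean log2 level and when scaled by library size alone. Under that last scaling NOD 2 (55.9 CPM) also passed ICR 3 (52.3 CPM).

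**Figure D1:**
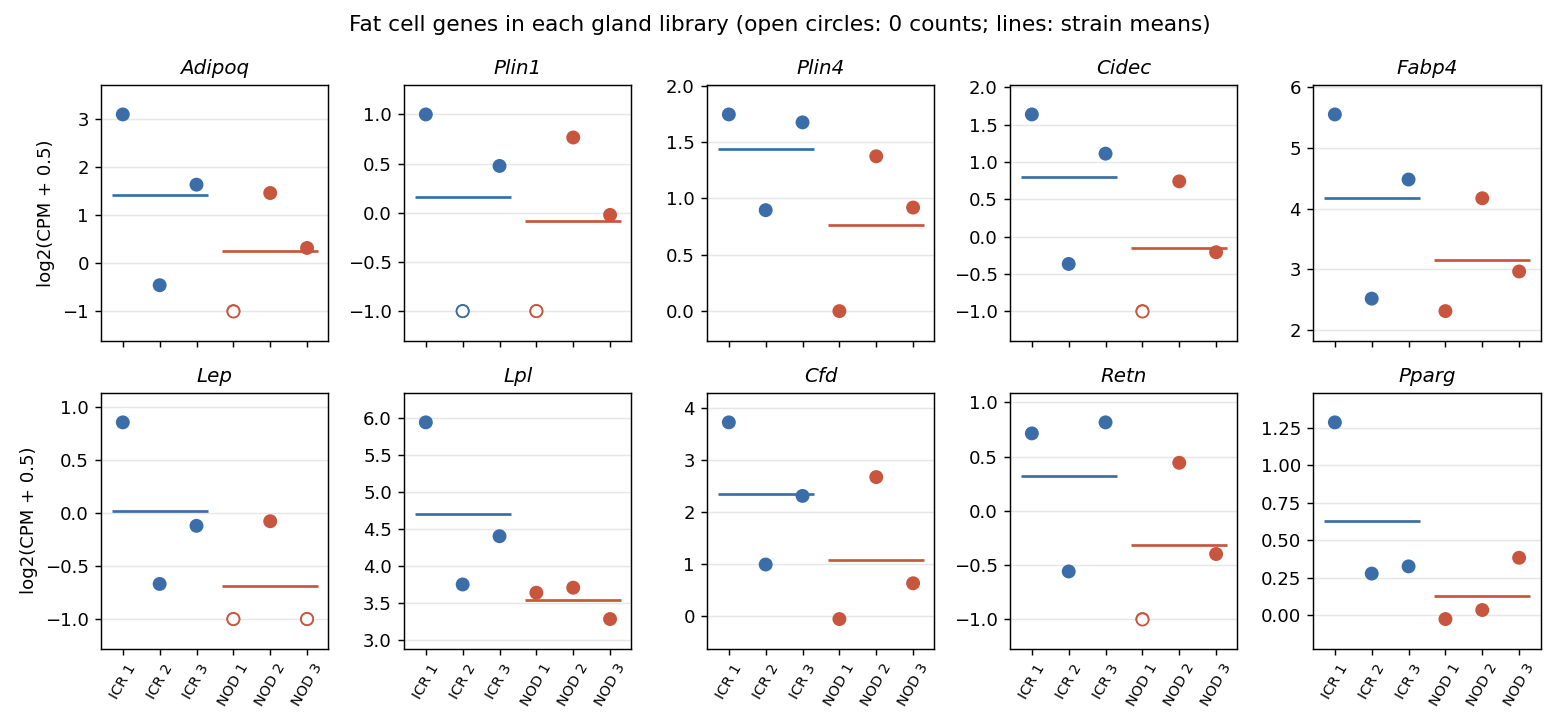
Each panel plots log2(CPM + 0.5) of 1 fat cell gene in the 6 libraries, ICR in blue and NOD/Ltj in red, with a line at the mean of each strain and open circles for 0 counts. ICR 1 is the highest library in 9 of the 10 panels, and NOD 1 is at 0 counts in 5 of them.

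Of the secreted products, Adipoq encodes adiponectin, a circulating hormone made almost only by fat cells. It stood at 8.00, 0.226 and 2.59 CPM in ICR 1, 2 and 3 and at 0, 2.24 and 0.742 CPM in NOD 1, 2 and 3. ICR 1 was at least 36-fold higher than NOD 1, where no count was found, and ICR 2 rested on 14 counts. The strains overlapped, since ICR 2 lay below NOD 2 and NOD 3. Cfd, which encodes adipsin (complement factor D), stood at 12.7, 1.49 and 4.46 CPM in ICR and at 0.463, 5.87 and 1.05 CPM in NOD/Ltj, a 27.4-fold range. NOD 2 lay above ICR 2 and ICR 3 for this gene. Lep, which encodes the satiety hormone leptin, was scarce, with 1.31, 0.129 and 0.42 CPM in ICR, 0.448 CPM in NOD 2 and no count in NOD 1 and NOD 3. Its ICR 1 level was at least 5.92-fold above NOD 1. Retn, which encodes resistin, stood at 1.14, 0.178 and 1.26 CPM in ICR and at 0, 0.859 and 0.258 CPM in NOD/Ltj. It was the only member with its highest level outside ICR 1, in ICR 3, and scaled by library size alone it too was highest in ICR 1 (1.35 against 1.15 CPM).

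The genes of the lipid droplet surface were also highest in ICR 1, which stood out less than on Adipoq. ICR 1 was 1.26 times the next library for Plin1, 1.57 times for Cidec and 1.06 times for Plin4, against 3.09 times for Adipoq. Plin1, the perilipin that guards the droplet against lipases, stood at 1.5, 0 and 0.891 CPM in ICR and at 0, 1.20 and 0.485 CPM in NOD/Ltj. One library of each strain, ICR 2 and NOD 1, thus held no count of it. Cidec, which promotes droplet fusion, stood at 2.61, 0.275 and 1.66 CPM in ICR and at 0, 1.17 and 0.364 CPM in NOD/Ltj, with ICR 1 at least 11.8-fold above NOD 1. Plin4, a perilipin of nascent droplets, varied least of the 3 and was found in every library. It stood at 2.85, 1.36 and 2.69 CPM in ICR and at 0.50, 2.09 and 1.39 CPM in NOD/Ltj, a 5.69-fold range.

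Fabp4 and Lpl, which handle fatty acids, had the most CPM of the members. Fabp4, the fatty acid-binding protein of adipocytes, stood at 46.4, 5.22 and 21.8 CPM in ICR and at 4.46, 17.5 and 7.30 CPM in NOD/Ltj, a 10.4-fold range in the same library order as Adipoq. Lpl encodes the lipase that frees fatty acids from lipoproteins. It stood at 61.0, 13.0 and 20.7 CPM in ICR and at 12, 12.6 and 9.27 CPM in NOD/Ltj. It was the only member whose strains did not overlap, by the small gap between ICR 2 and NOD 2, and with library size alone they overlapped (10.5 CPM in ICR 2, 15.8 in NOD 2). Among all 18537 genes tested, 8.89% had groups that did not overlap with NOD/Ltj lower. In NOD 1, where no Adipoq, Plin1, Cidec, Lep or Retn was counted, Fabp4 still held 241 counts and Lpl 646. Per kilobase of all annotated exons joined, the mean level over the 6 libraries was highest for Cfd (4.70 CPM per kb). Fabp4 (3.81), Lpl (2.04) and Adipoq (1.67) followed, and Lep was lowest (0.115). The joined exons measured 922 bases for Cfd, 4489 for Fabp4 and 10478 for Lpl. They can be longer than the transcript that is made, so this order depends on the lengths used and does not rank the genes by transcript number.

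Pparg itself stood at 1.94, 0.711 and 0.752 CPM in ICR and at 0.481, 0.523 and 0.803 CPM in NOD/Ltj. Only ICR 1 stood out. The other libraries ran from 0.481 to 0.803 CPM, a far narrower span than that of Adipoq. NOD 2 lay close to NOD 1 on this gene while holding far more Adipoq. These libraries held only 26 to 53 counts of Pparg each (6.5 to 13.25 fragments), too few to rank them by it. The C/EBP factors act beside Pparg in adipocyte differentiation and bind the sequence TTNNGCAA. RefSeq start regions (build GRCm38.p6, 250 bases before to 50 after the start) were at hand for 8 of the 10 genes, in 11 regions, with none used for Fabp4 and Lpl. TTNNGCAA, searched on both strands (TTGCNNAA on the other), lay in 4 of the 11, 1 each of Lep, Plin1, Cidec and Pparg, and in 10.8% of all 32851 such regions. These 4 are shown as the members' regions that hold the motif, with each match in capitals.
Lep, chr6:29059971-29060270, + strand: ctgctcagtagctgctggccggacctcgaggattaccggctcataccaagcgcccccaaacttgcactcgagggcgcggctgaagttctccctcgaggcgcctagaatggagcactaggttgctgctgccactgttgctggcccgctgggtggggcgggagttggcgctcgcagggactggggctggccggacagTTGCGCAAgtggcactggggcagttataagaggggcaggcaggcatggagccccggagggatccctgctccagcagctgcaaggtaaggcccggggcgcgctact
Plin1, chr7:79732727-79733026, - strand: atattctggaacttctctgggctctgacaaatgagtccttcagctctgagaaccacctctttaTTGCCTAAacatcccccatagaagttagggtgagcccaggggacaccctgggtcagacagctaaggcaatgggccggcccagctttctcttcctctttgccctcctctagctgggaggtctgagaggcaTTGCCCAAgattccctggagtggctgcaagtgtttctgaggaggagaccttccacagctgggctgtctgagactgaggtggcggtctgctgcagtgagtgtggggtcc
Cidec, chr6:113434715-113435014, - strand: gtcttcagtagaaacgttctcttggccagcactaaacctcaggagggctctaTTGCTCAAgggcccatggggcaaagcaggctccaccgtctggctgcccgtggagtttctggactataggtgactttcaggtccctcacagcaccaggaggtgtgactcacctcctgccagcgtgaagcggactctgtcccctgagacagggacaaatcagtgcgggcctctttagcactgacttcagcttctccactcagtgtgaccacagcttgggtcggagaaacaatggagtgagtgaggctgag
Pparg, chr6:115421816-115422115, + strand: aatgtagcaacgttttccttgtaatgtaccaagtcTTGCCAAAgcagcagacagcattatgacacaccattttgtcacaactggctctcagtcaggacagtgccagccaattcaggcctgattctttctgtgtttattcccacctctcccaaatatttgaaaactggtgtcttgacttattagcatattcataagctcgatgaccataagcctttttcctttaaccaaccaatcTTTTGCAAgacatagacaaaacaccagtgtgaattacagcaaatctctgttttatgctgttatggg
The Lep match starts 55 bases before the start site and is the palindrome TTGCGCAA, a special case of the same motif that 0.183% of all regions hold. The Plin1 matches start 187 and 58 bases before the start, the Cidec match 198, and the Pparg matches 215 and 16. AGGTCA, the half-site of nuclear receptors, was in 2 of the other Pparg regions and in 16.3% of all. The Pparg response element was searched only as an exact repeat, 2 copies of AGGTCA with 1 base between them. That repeat was in none of the 11 (0.0396% of all). Inexact copies, and sites outside these regions, were not searched. A match is a stretch of letters and not a measured site, and binding was not measured in this study.

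The members were next compared with Adipoq over the 6 libraries on the log2(CPM + 0.5) scale, with exact two-sided permutation tests over the 720 pairings (Benjamini-Hochberg adjustment for 9 relations). Cidec (Pearson r 0.98, Spearman rho 1.00), Fabp4 (0.99 and 1.00) and Plin4 (0.91 and 1.00) followed Adipoq in the same order of libraries. Each had the smallest exact permutation p the pairings can give (0.00278, adjusted p = 0.00834). For Cidec the order of ICR 2 (17 counts) and NOD 3 (24 counts) rests on few fragments. On Adipoq, ICR 3 and NOD 2 lay close (2.59 and 2.24 CPM), and the relations were not recomputed under another scaling. Cfd (r 0.96, rho 0.89), Plin1 (0.95 and 0.93) and Retn (0.93 and 0.94) each had an exact permutation adjusted p = 0.0167 for r. The rho of Cfd had an adjusted p = 0.05 by the exact permutation test. Lep had r 0.93 (exact permutation adjusted p = 0.0285) and rho 0.84, which missed the threshold (exact permutation adjusted p = 0.0571). Without ICR 1 and NOD 1, the libraries farthest from the median of Adipoq, r of these 7 genes was between 0.80 (Lep) and 0.99 (Fabp4) over 4 libraries. Lpl (r 0.81, exact permutation adjusted p = 0.0812) and Pparg (r 0.74, exact permutation adjusted p = 0.10) did not pass. Without those 2 libraries r was 0.55 for Lpl and −0.39 for Pparg. In the 4 libraries left, Pparg held only 42 to 53 counts each, too few to read its r. With 3 libraries per strain, no relation within a strain could be tested.

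**Figure D2:**
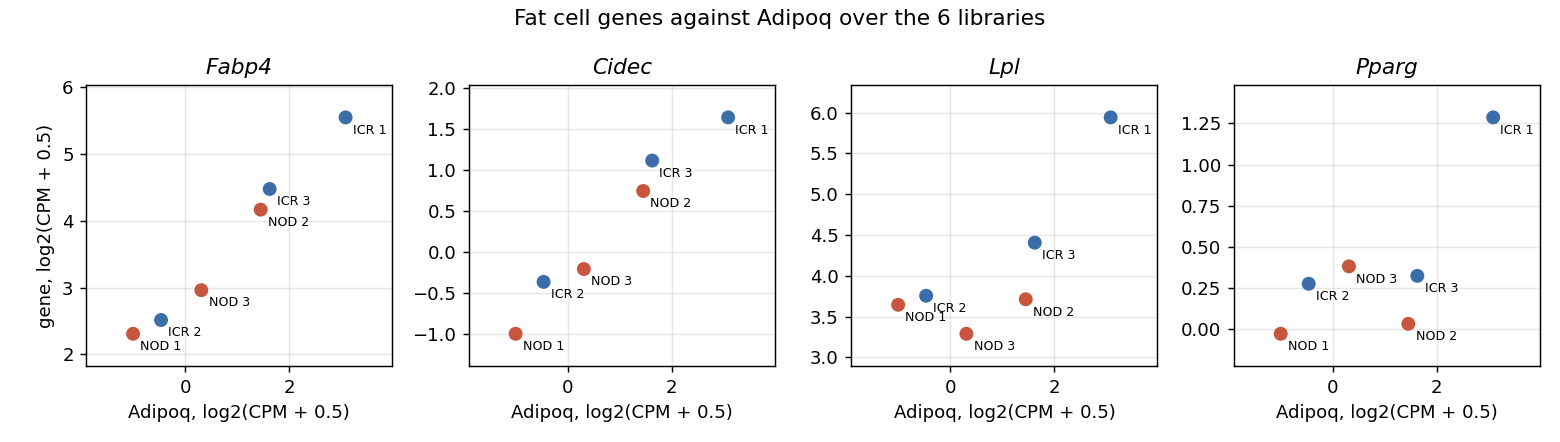
Each panel plots 1 gene against Adipoq, both as log2(CPM + 0.5), with 1 labelled point per library, ICR in blue and NOD/Ltj in red. Fabp4 and Cidec climb with Adipoq through all 6 libraries, while Lpl and Pparg are highest in ICR 1 and out of Adipoq's order among the rest.

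The share of each gene relative to Adipoq was compared in the 4 libraries with at least 40 counts (10 fragments) of Adipoq. Fabp4 had 5.80 counts per Adipoq count in ICR 1, 8.43 in ICR 3, 7.82 in NOD 2 and 9.84 in NOD 3, a spread of 1.70-fold. Cfd (1.41 to 2.62 counts per Adipoq count) and Cidec (0.327 to 0.642) kept within 1.86-fold and 1.96-fold. Plin4 ran from 0.356 in ICR 1 to 1.88 in NOD 3 and Pparg from 0.233 in NOD 2 to 1.08 in NOD 3, spreads of 5.28-fold and 4.64-fold. ICR 1 had the lowest share of Plin1 (0.188), Plin4, Cidec, Fabp4 and Retn (0.143) beside its high Adipoq.

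Between the strains, none of the 10 fat cell genes passed the edgeR test at an adjusted p under 0.05. Of all 18537 genes tested, 1.88% were called higher and 0.361% lower in NOD/Ltj. All 10 members were tested, and all 10 had a negative log2 fold change (NOD/Ltj over ICR), with a median of −1.33 beside −0.03 over all genes tested. The changes were −1.84 ± 1.47 for Adipoq, −2.0 ± 1.57 for Lep, −1.33 ± 1.03 for Cfd and −1.18 ± 1.26 for Retn (log2, SE). They were −0.50 ± 1.58 for Plin1, −0.78 ± 0.55 for Plin4, −1.55 ± 1.27 for Cidec, −1.32 ± 0.77 for Fabp4 and −0.91 ± 0.54 for Pparg (log2, SE). The adjusted p of the 10 members ran from 0.289 (Lpl) to 0.945 (Plin1) by edgeR's test.

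Lpl came nearest, at −1.48 ± 0.53 (log2, SE, edgeR unadjusted p = 0.0251, adjusted p = 0.289), and was lower in NOD/Ltj in 3 of 3 libraries. It was the only member at an unadjusted p under 0.05, beside 5.05% of all genes lower and 8% higher at that level. DESeq2 called none of the members (Lpl at DESeq2 adjusted p = 0.0585) and 4.84% of all genes higher and 1.54% lower. Before adjustment, 1 member was under 0.05 by DESeq2, beside 5.86% of all genes lower and 8.7% higher. limma-voom called 0 members and 0.664% of all genes higher and 0.108% lower. Before adjustment, 0 members were under 0.05 by limma-voom, beside 4.33% of all genes lower and 8.9% higher. The intervals were wide. For Adipoq the 95% interval of the log2 fold change ran from −5.26 to 1.58, and took in lower, equal and higher levels in NOD/Ltj. Without ICR 1 the median of the members was −0.53, Adipoq stood at −0.47, Cfd at −0.26, Lpl at −0.59 and Plin1 at 0.36, a change of sign.

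**Figure D3:**
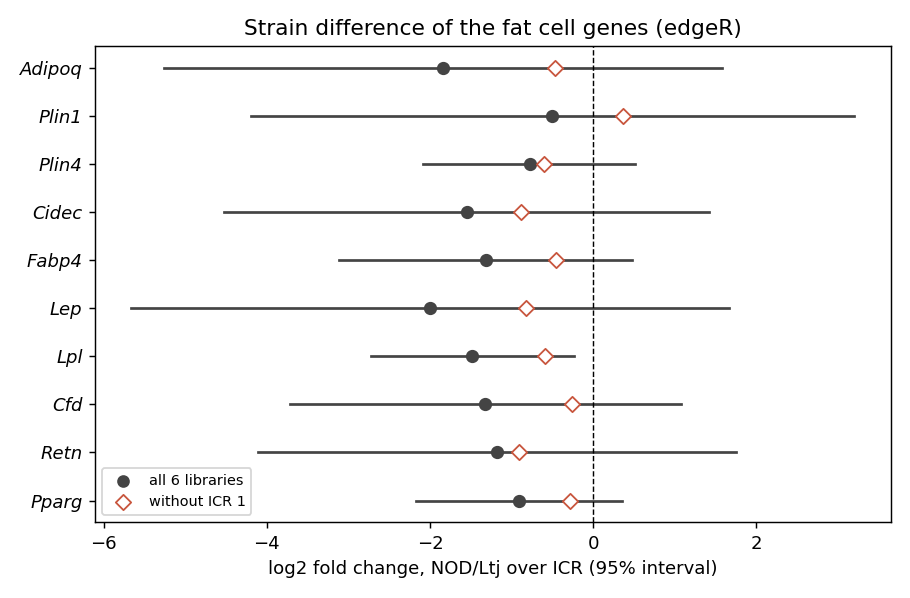
Filled points give the log2 fold change of each fat cell gene, NOD/Ltj over ICR, with its 95% interval over all 6 libraries, and open diamonds the value without ICR 1. The interval of 9 genes includes 0, and the open diamonds lie nearer to 0 than the filled points, with Plin1 on the other side at 0.36.

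The rest of the fat cell's machinery was measured with 8 lists holding 91 genes, of which 87 were tested. Of these, 0 were higher and 1 was lower in NOD/Ltj, against 1.88% and 0.361% of all genes tested, and the median log2 fold change was −0.28. At an unadjusted edgeR p under 0.05, 13 were lower and 1 was higher, beside 5.05% and 8% of all genes. The 1 that fell was Cav1, a caveola protein abundant in fat cells and in endothelium, with 25.3, 21.9 and 20 CPM in ICR and 8.43, 12.4 and 9.42 CPM in NOD/Ltj (log2 fold change −1.15 ± 0.20 SE, edgeR adjusted p = 0.0352). Unlike the fat genes, Cav1 was nearly level within each strain. Its call was lost without any 1 of the 6 libraries (edgeR adjusted p from 0.0535 to 0.221), with library size alone, by limma-voom and with the replicate block.

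The 2 most abundant genes of each general lipid pathway list were found in every library and spanned far less than Adipoq. Among 7 tested of 10 other droplet genes (median −0.48), G0s2, an inhibitor of the main triglyceride lipase, stood at 33.8, 45.3 and 44.0 CPM in ICR and 18.7, 18.0 and 27.1 CPM in NOD/Ltj, and did not pass (edgeR adjusted p = 0.0918). Plin3, a widely made perilipin, stood between 20 (NOD 2) and 37.8 CPM (ICR 2). In lipolysis (13 tested of 14, median 0.01), Pnpla2, that lipase, stood between 12.3 and 21.7 CPM, and Hcar1, the lactate receptor, between 10.4 and 15.2 CPM. In fat synthesis (20 of 20, median −0.24), the desaturase Scd1 stood between 130 and 238 CPM and the sterol-responsive factor Srebf1 between 41.0 and 68.2 CPM. The insulin response genes Pik3r1 (44.9 to 69.7 CPM) and Insr (34.7 to 53.8 CPM), in a list of 9 tested with a median of −0.23, were also made in every library. Adipor1, a receptor of adiponectin, stood between 18.5 and 30.9 CPM, and Lepr, the leptin receptor, between 12.8 (ICR 1) and 32.2 CPM (NOD 1), in a list of 4 with a median of 0.04. The other adipokine list (9 tested, median −0.33) included Nrg4, a growth factor of the neuregulin family (22.2 to 40.3 CPM).

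Genes that stood out in ICR 1 were found in several of these lists. Chosen after their values were seen, these included the droplet protein gene Plin2 (25.2 CPM in ICR 1 and 3.72 to 5.61 elsewhere), the natriuretic peptide receptor gene Npr1 of the lipolysis list (8.51 and 1.18 to 1.63), the insulin receptor substrate gene Irs1 (11.7 and 0.576 to 2.09) and Retnla, a relative of resistin (26.5 and 0.909 to 4.95). In uptake (12 of 12 tested, median −0.76 with all libraries and −0.47 without ICR 1), Cavin1, which shapes caveolae, stood at 107, 23.8 and 24.0 CPM in ICR and 15.8, 16.0 and 15.2 CPM in NOD/Ltj (edgeR adjusted p = 0.254). Acsl1, which activates fatty acids, stood between 21.6 and 37.1 CPM. Of the 13 adipogenic factors, all tested (median −0.47), 10 were highest in ICR 1. So were 7 of 12 uptake, 5 of 9 other adipokine, 3 of 9 insulin response and 2 of 4 receptor genes. In lipolysis it was 4 of 14, in fat synthesis 4 of 20 and among the other droplet genes 2 of 10. The share of all genes highest in ICR 1 was not counted. The 2 most abundant adipogenic factors were Klf15 (24.3 to 40.4 CPM) and the glucocorticoid receptor Nr3c1 (14.0 to 24.7 CPM). Ebf2, a factor of fat progenitors singled out after its values were seen, stood at 15.7 CPM in ICR 1 and between 0.759 and 1.64 CPM in the other libraries.

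Further marker lists described what else varied with fat. Of 15 other white fat markers, 6 were highest in ICR 1, 11 were tested and 0 called (median −1.22). Car3, the carbonic anhydrase abundant in fat and muscle, led them with 48.7, 4.81 and 37.3 CPM in ICR and 0.463, 18.1 and 3.51 CPM in NOD/Ltj, the library order of Adipoq except that ICR 2 and NOD 3 changed places. Lgals12, an adipocyte galectin on the same list, stood between 8.87 and 17.6 CPM, was lowest in ICR 1 and highest in NOD 1, and so ran against Adipoq. Pck1, which feeds glycerol into triglyceride and was named after its values were seen, had 0 counts in ICR 2 and NOD 1. It stood at 2.36 CPM in ICR 3, 1.57 in NOD 2, 1.16 in ICR 1 and 0.364 in NOD 3, so ICR 1 was not its highest library. Adrb3 and Trarg1, also named after their values were seen, were higher in ICR 3 (0.507 and 1.36 CPM) than in ICR 1 (0.318 and 0.303 CPM). Markers of thermogenic fat summed to 3.44 to 6.96 CPM, led by Ppargc1a, Ppara and Dio2. Among them Cox8b was at 0 in all 6 libraries, Ucp1 was at 0 counts in 5 libraries and at 19 counts in NOD 2, and Prdm16 stood between 0.448 and 1.12 CPM.

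The fibroblast and preadipocyte list moved with fat in ICR 1 only. Its 14 genes summed to 639 CPM in ICR 1 and to 146 to 177 CPM in the other 5 libraries. Of the 14, 8 were highest in ICR 1, among them Pparg, which is also a fat cell member. Dpt, a matrix protein of connective tissue, stood at 168 CPM in ICR 1 and between 4.30 and 12.3 CPM elsewhere, and Cd34, found on fibroblast progenitors and vessels, at 118 and between 6.83 and 11.1 CPM. ICR 1 was thus 13.7 times the next library for Dpt and 3.09 times for Adipoq. Dpp4, the most abundant of the list, stood at 89.1 CPM in ICR 1 and 50.3 to 71.3 CPM elsewhere. Macrophage genes, which could carry Fabp4, Lpl and Pparg, summed to 356 CPM in ICR 1, 84.1 and 109 in ICR 2 and 3, and 174 to 267 in NOD/Ltj, with 8 of 13 highest in ICR 1. Their most abundant members were Lyz2 (119 CPM in ICR 1 and 115 in NOD 2), C1qb and Mrc1 (58.2 CPM in ICR 1 and 4.88 to 10.2 elsewhere).

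Capillary endothelial genes summed to 41.3 to 62.2 CPM, with NOD 2 highest, led by Pecam1, Plvap and Tek. These 3 moved in opposite ways, so the sum does not show an even level of each gene. Tek stood at 19.9 CPM in ICR 1 and 1.89 to 3.73 CPM elsewhere. Pecam1 (3.91 CPM) and Plvap (2.87 CPM) were lowest in ICR 1 and highest in NOD 2 (24.3 and 12.2 CPM). Gpihbp1, the capillary anchor of Lpl, stood between 0.0606 and 0.646 CPM. Ductal genes summed to 816 CPM in ICR 1 and 360 to 440 elsewhere, led by Krt18, Krt8 and Epcam. The lacrimal acinar list was lowest in ICR 1, at 25200 CPM against 31600 to 61900, a sum led by Scgb2b24, Pip and Bhlha15. That sum mainly follows Scgb2b24, at 16800 CPM in ICR 1 and 23400 to 51800 CPM elsewhere. Pip was not lowest in ICR 1, and 2 of the 9 acinar genes, Aqp5 (108 CPM) and Slc12a2 (132 CPM), were highest there. Of the 9 acinar genes, Prol1 was lower in NOD/Ltj by edgeR's test. By salivary gland RNA the libraries ran ICR 3, NOD 2, ICR 2, ICR 1, NOD 3, NOD 1. This order differed from that by fat cell RNA in the place of ICR 1, highest in fat and below 3 libraries in salivary RNA. Apart from ICR 1, the libraries kept the same order in the salivary sum and in the sum of 10 fat cell genes. In the sum of 7 fat cell genes, ICR 2 and NOD 3 changed places. A relation between salivary and fat cell RNA was not tested. The salivary sums were led by Bpifa2 (8890 CPM in ICR 3 and 33.9 in NOD 1), Smr3a and Amy1, with Smgc, Dcpp3 and Klk1b3 at 0 everywhere, and the muscle sums by Acta1, Tnnt3 and Myh1. Harderian and sebaceous gland genes, which make other lipids, summed to 115 to 188 CPM (led by Soat1, Mc5r and Mgst1), with Awat1 at 0 counts in 5 libraries. B cell genes separated the strains, with 3.74 to 6.73 CPM in ICR and 119, 489 and 335 CPM in NOD 1, 2 and 3. Of the 9, 8 were higher in NOD/Ltj by edgeR's test (Cd79a, Pax5 and Cr2 among them), as were 5 of 9 T cell genes (Cd3e, Cd3g, Cd2, Lck and Cd5), whose sum was 3.05 to 3.99 CPM in ICR and 35.1 to 95.5 CPM in NOD/Ltj.

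Lymph node stroma genes, led by Cxcl13 and Glycam1 (the latter higher in NOD/Ltj by edgeR's test), summed to 33.6 CPM in ICR 1, 3.09 and 5.02 in ICR 2 and 3, and 12.8 to 63.2 in NOD/Ltj. Genes of lipid-associated macrophages (led by Ctsd, Ctsb and Cd9) summed to 502 CPM in ICR 1 and 271 to 363 CPM elsewhere. Nerve genes (Mbp, Pmp22, Sox10) summed to 67.4 CPM in ICR 1 and 41.9 to 49.0 elsewhere. Erythrocyte genes (Hba-a1, Hbb-bs, Hba-a2) summed to 148 CPM in ICR 1 and 53.6 to 102 elsewhere. Myoepithelial genes (Acta2, Tagln, Mylk) summed to 144 to 212 CPM, and neutrophil genes (Csf3r, Mmp8, Mmp9) to 1.29 to 4.79 CPM, with Retnlg at 0. The part of these other cells and neighbouring tissues in the fat cell values was not tested.

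**Figure D4:**
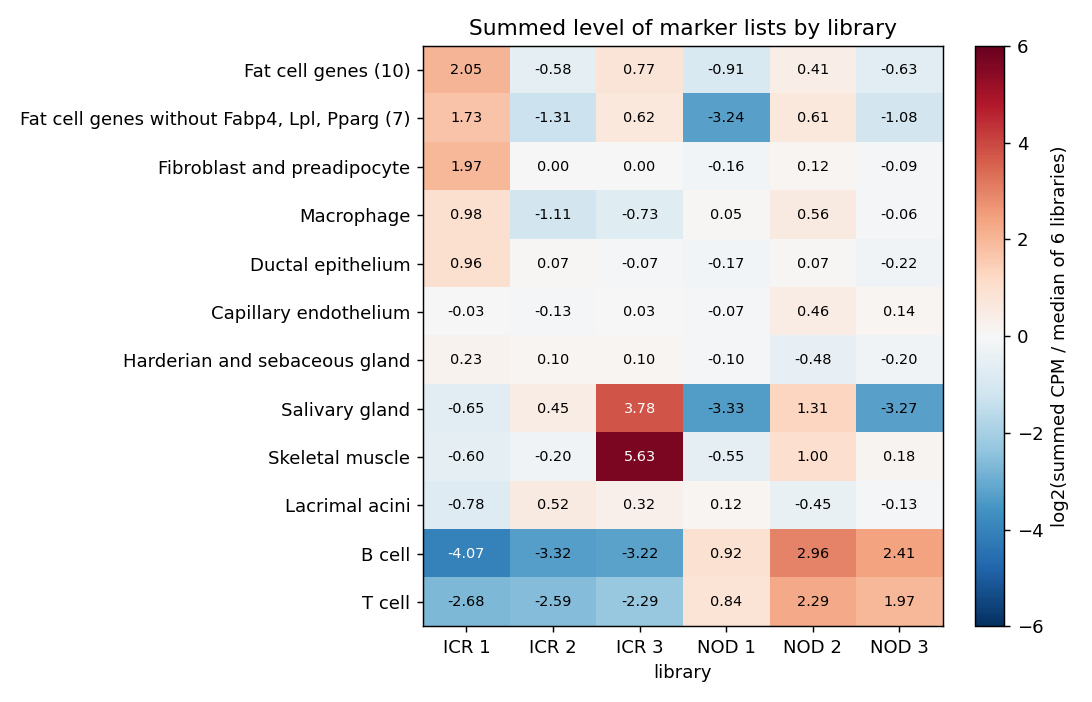
The heat map gives the summed CPM of each marker list in each library as log2 relative to the median of the 6 libraries. The row of the 10 fat cell genes is highest in ICR 1 (2.05) and lowest in NOD 1 (−0.91), the salivary (3.78) and muscle (5.63) rows peak in ICR 3, and the lymphocyte rows divide the strains.

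The genes most like Adipoq were sought among 13972 genes with a mean of at least 1 CPM. Of the other members in that set, Fabp4 ranked 3rd, Cidec 6th, Cfd 27th, Plin4 138th and Lpl 644th of 13971. Outside the members, the 10 nearest were Ugt1a6a (r 0.99, rho 0.94), P2ry1, Inmt, Mylip, Pak1ip1, Hnrnpm, Tspan14, Fxr1, Mr1 and Cebpa (r 0.97, rho 0.89). Inmt, an N-methyltransferase, spanned 12.9-fold, from 4.54 CPM in ICR 1 to 0.352 CPM in NOD 1. Ugt1a6a, a glucuronosyltransferase, spanned 10.2-fold and is uncertain, since the genes of its cluster share exons. Cebpa, the C/EBP factor of mature fat cells, stood at 7.96, 2.83 and 4.96 CPM in ICR and 3.00, 5.63 and 4.23 CPM in NOD/Ltj, a 2.82-fold span. Mylip, Pak1ip1, Hnrnpm, Tspan14 and Fxr1 spanned 1.31-fold to 1.91-fold, far less than Adipoq. The set itself was not stable, with 6 of the 10 shared when the mean of Adipoq, Plin1 and Cidec was the guide, and 1 to 4 when 1 library was left out. Ranking by Spearman rho gives no such set, since over 6 libraries 5 of these 10 genes already share the highest rho of 1.00.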

How the data were processed

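Polyadenylated RNA of 6 gland samples was made into libraries with a U-labelled, UDG-treated strand and sequenced as 2 × 150 bp pairs, per the labels' protocols. The authors deposited estimated counts per gene, whole numbers not scaled between libraries; fastp, StringTie and edgeR are named in the submitters' processing notes without roles. The sources used here do not give the aligner, build or strand setting, so overlapping genes are uncertain. Between 30.4 and 31.7% of values from 1 to 40 were multiples of 4 (25% without steps), so about 4 counts were taken as 1 fragment. The test was planned for counts and was kept, since no value needed rounding. Whole numbers do not make these values fragment counts. At about 4 counts per fragment, the tests may take genes with few reads, such as Lep, as better measured than they were.

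Symbols from GENCODE mouse release 21 matched 55141 identifiers. Lengths are unions of its exons. edgeR 4.0.16 in R 4.3.3 (quasi-likelihood, TMM, filterByExpr, two-sided, all 6 libraries, no block) was adjusted by Benjamini-Hochberg over 18537 genes and called under 0.05. CPM are TMM-scaled. The standard error is the absolute log2 fold change over the square root of F. The fit was tested on simulated data that varied less between samples than these libraries did (common biological coefficient of variation 0.421 here). That run therefore cannot show how the fit performs on these data. Alternatives were DESeq2 1.42.0, limma-voom (limma 3.58.1), 2 other scalings, 2 other filters, a replicate block and each library left out.

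The members, the lists and the naming rule were chosen with earlier results of these data known. The rule named all members, each called list gene, the 2 most abundant genes of each fat pathway list, the 3 most abundant of each cell list used, and the 10 genes nearest to Adipoq by Pearson r with a mean of at least 1 CPM, leaving out Gm and Rik symbols. Some genes the rule names are not reported here. Lists for nerve, erythrocytes, neutrophils, myoepithelium, T cells, lymph node stroma and lipid-associated macrophages were summed too. No library pair was alike within sampling noise.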

Additional observations from a re-analysis of the deposited data

How the results depend on the processing

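None of the 10 fat cell genes was called in either direction under any of the 13 alternatives run. Of their log2 fold changes, 9 kept a negative sign in every alternative, and that of Plin1 turned positive by limma-voom (0.01), without ICR 1 (0.36) and without NOD 1 (0.08), and ran down to −1.68 with other libraries left out. Lep, Plin1 and Pparg had no value under the stricter filter, which removed them. Without the 2 libraries farthest from the median, r of Pparg with Adipoq was −0.39. Over all genes, the 349 called higher and 67 called lower became 226 and 40 with library size alone, 898 and 285 by DESeq2, 123 and 20 by limma-voom, and 129 and 25 with the replicate block. With 1 library left out the counts ran from 11 to 406 higher and from 2 to 118 lower. The labels used here do not say whether the replicate numbers pair the samples. Deviations of same-numbered libraries correlated at −0.12, −0.149 and 0.072, and those of other pairs at −0.068 to 0.167. With so few libraries this cannot decide whether same-numbered samples share a batch. The block changed no call of a fat cell gene. DESeq2 called 1 higher and 6 lower of the 87 tested genes of the fat pathway lists, beside 4.84% higher and 1.54% lower of all genes. The depth limits Lep, Plin1, Retn, Adipoq and Cidec, which had 0 counts in 1 or 2 libraries. It limits Pparg too, with 26 to 53 counts in each library but ICR 1.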
